A study of Mus musculus with 4 samples.

Results

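Glutathione, the peroxiredoxins and thioredoxins, and the transcription factor NRF2 that governs many of their genes form the main defence of brain cells against peroxides. The 39 genes described here were taken by gene symbol from 4 tables of 55471 genes each, and all 39 symbols were found. They comprise NRF2 (Nfe2l2), its inhibitor Keap1, genes for making and reducing glutathione, thioredoxins and glutaredoxins, peroxiredoxins, peroxidases, glutathione transferases and enzymes that supply NADPH. The samples were 2 libraries labelled cuprizone and 2 labelled mock, all labelled batch 1 and 3 weeks, from mice of genotype GFAP-Cre+/- Rpl22HA/wt. Cuprizone is a copper chelator that kills oligodendrocytes when fed. According to the design text, the cuprizone mice were males of 8 to 9 weeks on chow with 0.2% cuprizone by weight, and the mice without it ate normal chow and were matched for age. The design text names collections at 5, 5.5 and 7 weeks, whereas the sample labels read 3 weeks, and it was not settled from the sources used here which applies. In both groups, Cre under the GFAP promoter puts an HA tag on the ribosomal protein Rpl22, and RNA bound to tagged ribosomes was pulled down from brain, micro-dissected as corpus callosum in the design text. The labels call the replicates biological without saying whether a library came from 1 animal or several, so a p-value covers the spread among these 4 libraries, whatever its source.

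In astrocytes, NRF2 is held low by KEAP1, which hands it to a ubiquitin ligase; oxidants and electrophiles modify KEAP1, and NRF2 then accumulates and binds antioxidant response elements near its targets. Those targets make glutathione, keep it and thioredoxin reduced with electrons from NADPH, and conjugate reactive compounds to glutathione. Astrocytes are known for a high NRF2 activity and for supplying glutathione precursors to neurons.

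The libraries held 21834814 and 23822620 counts in cuprizone and 22109536 and 21209517 in mock, so 3 counts correspond to 0.126 to 0.141 CPM (counts scaled to the library total), a limit of counting error only. All 14 astrocyte markers had counts in every library. Together they took 0.676% and 0.801% of counts in cuprizone libraries, against 1.09% and 1.06% in mock libraries. Aldoc, Slc1a2, Slc1a3, Gfap, Mlc1, S100b and Fgfr3 were lower in both cuprizone libraries than in both mock libraries. In Aqp4, Aldh1l1, Gja1, Gjb6, Sox9, Atp1b2 and Slc4a4 the groups overlapped, so the lower sum did not hold for every marker. The 10 neuron markers took 1.46% in each cuprizone library, against 1.28% and 1.32% in mock. Snap25 was the most abundant of them, at 9900 and 10008 CPM in cuprizone, against 8292 and 8297 CPM in mock. Rbfox3, Tubb3, Stmn2 and Gad1 were also higher in both cuprizone libraries. Syt1, Slc17a7 and Thy1 were lower in both, and Nefl and Nefm overlapped. The 10 oligodendrocyte markers took 1.05% and 1.36% in cuprizone, against 1.32% and 1.53% in mock. Neuron and oligodendrocyte markers thus took shares like those of astrocyte markers, whereas oligodendrocyte precursor markers took at most 0.0185%. How much of these counts came from cells without the tag was not tested. In such bulk pull-downs fewer cells of a type and less RNA per cell cannot be told apart. Mitochondrially encoded genes took 0.00208% and 0.00232% of counts in cuprizone, against 0.0336% in each mock library, and 4 nuclear long non-coding RNAs 0.0891% and 0.0909%, against 0.02% and 0.018%. Microglia and erythrocyte markers stayed under 0.004% in every library. The part of these shifts in the results below was not tested.

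No gene of the group passed the test, and no common direction held across it. Glutathione reductase (Gsr) and Nfe2l2 were higher in both cuprizone libraries than in both mock libraries, and Prdx4, the peroxiredoxin of the endoplasmic reticulum, was lower in both. The abundant transferase Gstm1 and the peroxiredoxin Prdx6 were also lower in both. Of the 39 genes, 38 passed the filter on low counts, and edgeR's quasi-likelihood test called 0 of the 38 at an adjusted p under 0.05, where it called 0.0822% of all 15816 genes tested (0.0316% higher and 0.0506% lower). DESeq2, limma-voom and edgeR with bias-adjusted dispersions also called 0 of the 38, where they called 4.52%, 0.297% and 0.322% of all genes. At an unadjusted p under 0.05, edgeR marked 4 of 38, or 10.5%, against a background of 12.8%: Gsr with a positive fold (background 5.73%) and Prdx4, Gstm1 and Prdx6 with negative folds (background 7.04%). DESeq2 likewise marked 4, against a background of 14.4%. The share marked was thus near that of all genes. Among the 13 genes that edgeR called over all genes, the smallest log2 fold was 1.35 in size. The largest of the 38 was 1.05. Sizes among the genes that the other methods called were not summarised.

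**Figure D1:**
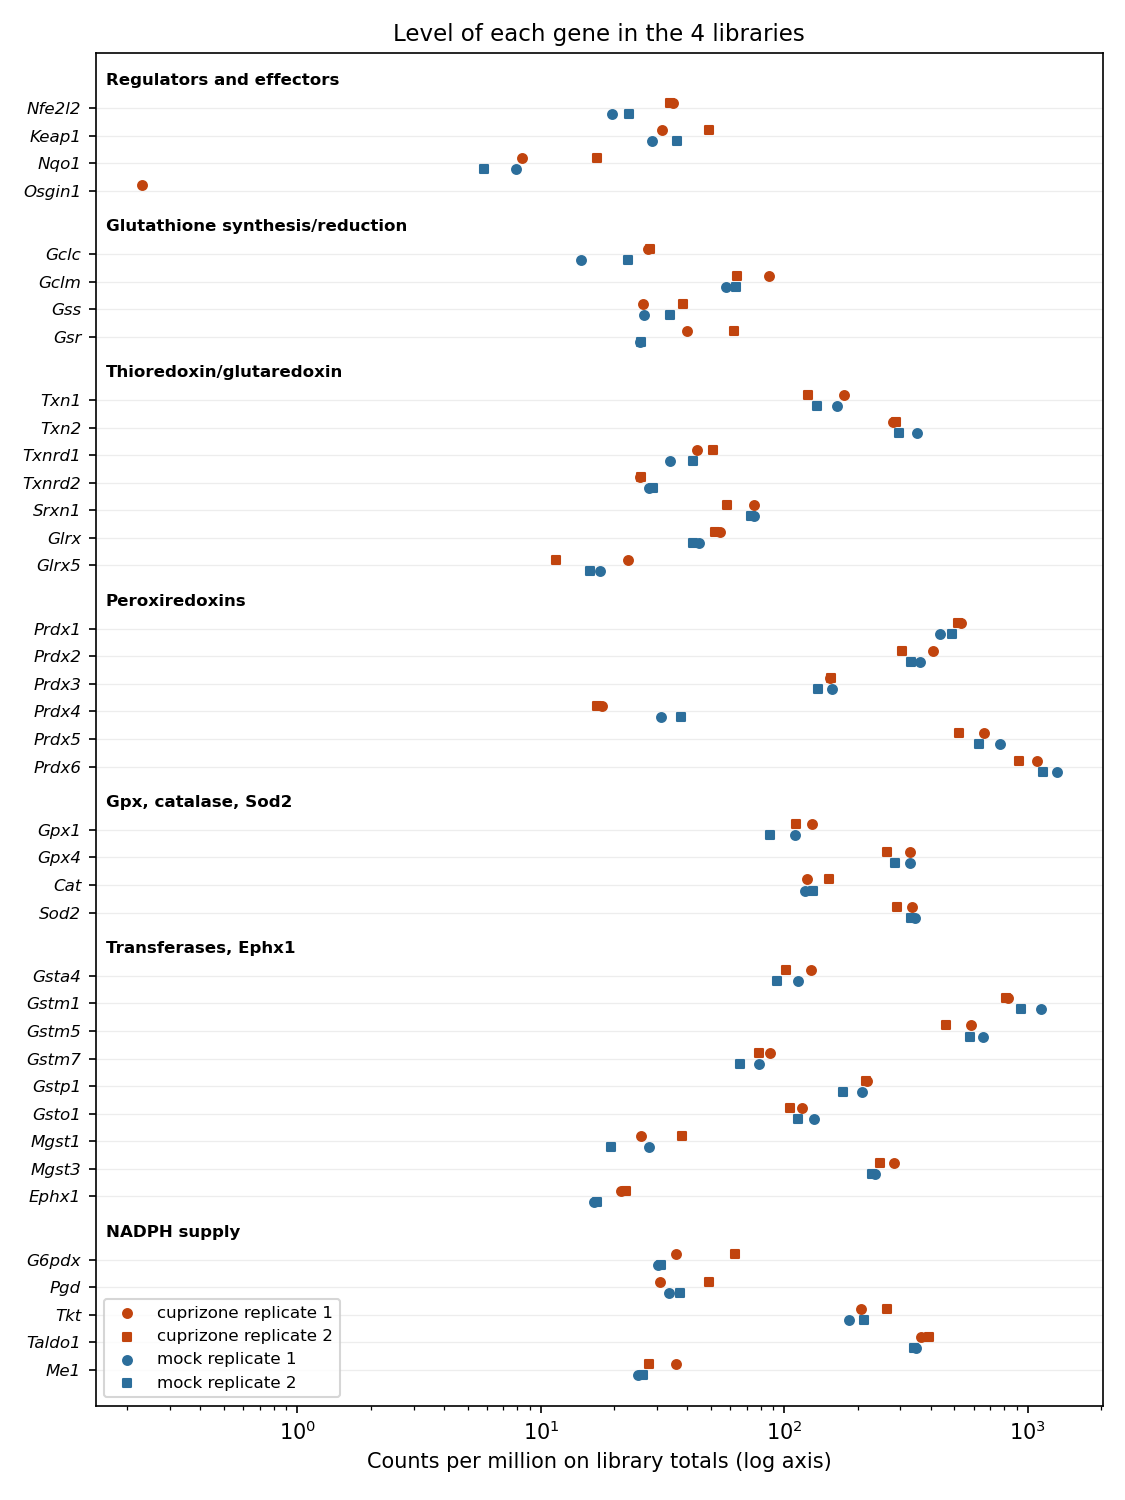
CPM on library totals (log axis) of each of the 39 genes, grouped by role, in cuprizone replicates 1 and 2 (orange circle and square, upper in each row) and mock replicates 1 and 2 (blue, lower). Libraries with 0 counts are not drawn, which leaves 1 point for Osgin1; Prdx4, Nfe2l2 and Gsr are among the rows in which the colours lie clearly apart, and in 17 of the 38 tested genes they overlap.

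All log2 folds put cuprizone over mock and are scaled by edgeR's TMM factors. Their median over the 38 genes was 0.09, against 0.00 over all genes tested, and 24 of 38 (63.2%) were positive, against 50.1% of all genes. In CPM on library totals, 16 of the 38 were higher in both cuprizone libraries, where 25.7% of all genes were, and 5 were lower in both, where 18.9% were, so that 21 did not overlap, against 44.6% of all genes. These counts depended on the scaling. With CPM divided by the TMM factors, 9 were higher in both (background 21.9%) and 10 lower in both (background 22.5%). Under that scaling Srxn1, Prdx5, Sod2, Gstm5 and Gsto1 went from overlap to lower in both. Nqo1, Gclm, Txnrd1, Gpx1, Gstm7, Gstp1 and Taldo1 went from higher in both to overlap. Elsewhere in the text, overlap of a single gene is judged on library totals unless stated. The excess of higher genes was thus present on library totals and absent with TMM factors. Library totals without factors moved the median fold of all genes to 0.07 and that of the 38 to 0.16.

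**Figure D2:**
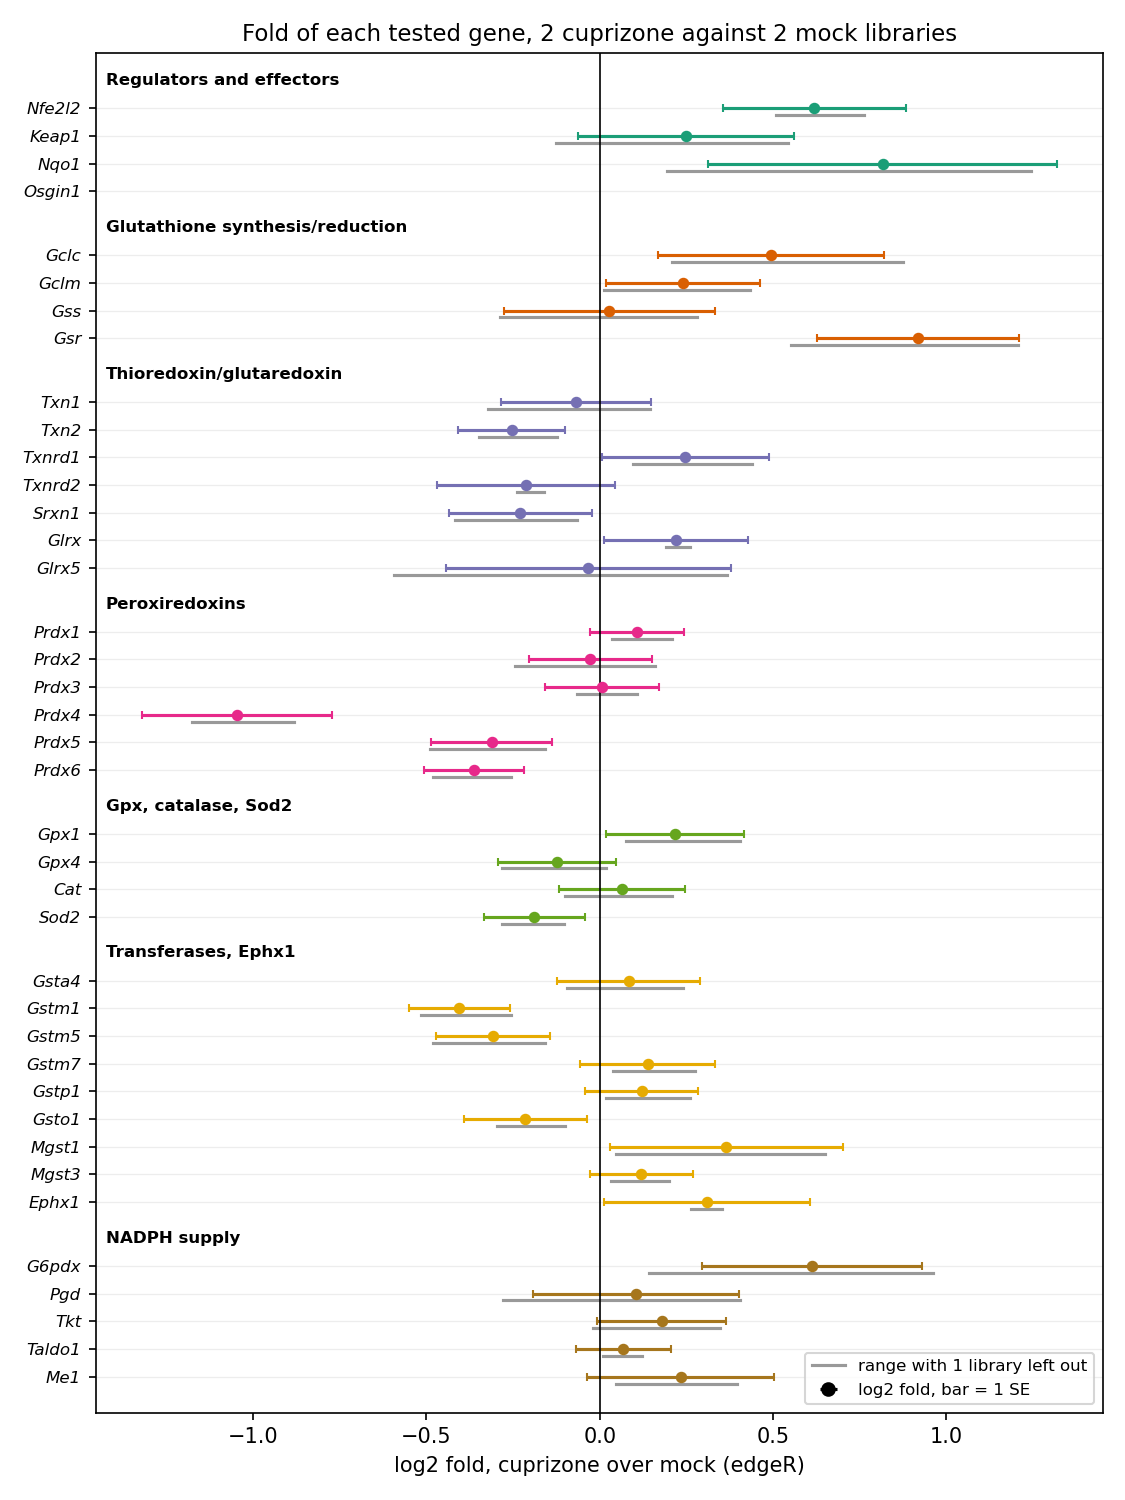
log2 fold, cuprizone over mock, of the 38 tested genes by role (point, with a bar of 1 SE from edgeR) and, in grey below each point, the range of the fold when 1 library is left out. Osgin1 was not tested. Prdx4 at -1.05 and Gsr at 0.92 lie farthest from 0, and the grey ranges of 11 genes cross 0.

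The regulators stood at low levels. Nfe2l2 had 34.9 and 33.8 CPM in cuprizone libraries, against 19.6 and 23.1 CPM in mock libraries. The groups did not overlap, and the 2 cuprizone libraries lay close together. Its log2 fold was 0.62 (SE 0.26) with an edgeR adjusted p of 0.406, and it ran from 0.51 to 0.76 when 1 library was left out. Keap1, the adaptor that marks NRF2 for degradation, had 31.4 and 49.3 CPM in cuprizone, against 28.5 and 36.3 CPM in mock, and the groups overlapped. Its log2 fold of 0.25 (SE 0.31, edgeR adjusted p = 0.837) became -0.13 without cuprizone replicate 2. The ratio of Nfe2l2 to Keap1 in TPM, which corrects for gene length, was 1.38 and 0.849 in cuprizone libraries, against 0.852 and 0.785 in mock libraries.

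Nqo1, a quinone reductase and a standard readout of NRF2 activity, had 8.34 and 17.0 CPM in cuprizone, against 7.92 and 5.85 CPM in mock. Cuprizone replicate 2 alone stood well above the rest. On library totals cuprizone replicate 1 lay just above the higher mock library, but with TMM factors the groups overlapped. The log2 fold was 0.82 (SE 0.50, edgeR adjusted p = 0.584), and 0.20 without cuprizone replicate 2. Osgin1, an oxidative stress response gene, had 5 counts in cuprizone replicate 1 and 0 in the other cuprizone and both mock libraries, and did not pass the filter.

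A short element that NRF2 binds, the antioxidant response element, has the core TGACNNNGC, where N is any base. It was searched on both strands of the RefSeq promoters on GRCm38.p6, which span 250 bases before to 50 after each start site. Of the 35 genes of the group with a promoter in that table, 11 (31.4%) held the core at 1 or more listed start sites. Of 27025 genes with a promoter, 14% did. The list was made to include NRF2 target genes, so this difference is no independent result about them. Gclc, Gsr, Prdx6 and Gsta4 had no entry. The matches are shown because they let the core and its flanks be compared between genes that stood higher and lower; each is printed 5′ to 3′ on the strand that reads TGAC, with the core in capitals.
Nfe2l2, chr2:75704885-75704913, minus strand: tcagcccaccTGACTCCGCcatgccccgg
G6pdx, chrX:74428919-74428947, plus strand: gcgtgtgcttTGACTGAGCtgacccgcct
Gclm, chr3:122245413-122245441, minus strand: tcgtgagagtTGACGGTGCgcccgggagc
Me1, chr9:86695902-86695930, minus strand: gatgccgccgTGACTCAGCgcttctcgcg
Prdx1, chr4:116685456-116685484, minus strand: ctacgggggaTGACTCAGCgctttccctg
Txnrd1, chr10:82859104-82859132, minus strand: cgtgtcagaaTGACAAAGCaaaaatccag
Mgst1, chr6:138140461-138140489, minus strand: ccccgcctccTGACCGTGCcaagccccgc
Gstm7, chr3:107931725-107931753, minus strand: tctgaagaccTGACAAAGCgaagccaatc
Gstm5, chr3:107895802-107895830, plus strand: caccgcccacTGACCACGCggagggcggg
Srxn1, chr2:152105542-152105570, minus strand: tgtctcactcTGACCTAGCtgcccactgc
Pgd, chr4:149166061-149166089, minus strand: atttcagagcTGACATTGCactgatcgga
Me1 and Prdx1 shared the same core letters, as did Txnrd1 and Gstm7. Those in Me1 and Nfe2l2 lay 6 and 240 bases before the start site, and those in Srxn1 and Pgd after it. In Pgd, Txnrd1 and Gstm7 the matched start site lay inside the gene, downstream of another listed start site without a match. Whether a match lay in coding sequence was not checked. Of the 11 genes with a match, 9 had positive folds (median log2 fold 0.23). Of the 23 tested genes with a promoter and no match, 12 did (median 0.01). Nqo1, with a fold of 0.82, was among these 23, and an element outside the window searched would not be seen. Gsr (0.92), Gclc (0.49), Gsta4 (0.08) and Prdx6 (-0.36) had no entry and were in neither set. Over all genes tested 50.1% of folds were positive, but the share among all genes with the core was not counted. The difference was not tested. Among the 9, the fold of Pgd fell to -0.28 and that of Gclm to 0.01 with 1 library left out. A match is a description of letters in this window.

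The genes for making and reducing glutathione all had positive folds over the 4 libraries, although that of Gss turned negative without cuprizone replicate 2 or mock replicate 1. Gsr, which returns oxidised glutathione to its reduced form with NADPH, had 39.9 and 62.1 CPM in cuprizone libraries, against 25.6 and 25.9 CPM in mock libraries. Both cuprizone libraries stood above both mock libraries, which lay close together, but the cuprizone libraries differed from each other 1.56-fold. The log2 fold was 0.92 (SE 0.29), with an unadjusted p of 0.0185 and an edgeR adjusted p of 0.285; over the alternatives the adjusted p was lowest with DESeq2, at 0.0886. Without cuprizone replicate 2 the fold was 0.55. The subunits of glutamate-cysteine ligase, the first and limiting enzyme of glutathione synthesis, followed. The catalytic subunit Gclc had 27.4 and 28.1 CPM in cuprizone, against 14.7 and 22.9 CPM in mock. It had a log2 fold of 0.49 (SE 0.33, edgeR adjusted p = 0.612), which was 0.21 without mock replicate 1 and 0.87 without mock replicate 2. The modifier subunit Gclm had 86.7 and 63.9 CPM in cuprizone, against 57.8 and 63.6 CPM in mock, where cuprizone replicate 2 and mock replicate 2 were nearly equal. Its log2 fold was 0.24 (SE 0.22, edgeR adjusted p = 0.746). Glutathione synthetase (Gss) had 26.2 and 38.4 CPM in cuprizone, against 26.6 and 33.8 CPM in mock, overlapping groups with a log2 fold of 0.03. Summed over the 4 genes, the level was 180 and 192 CPM in cuprizone, against 125 and 146 CPM in mock, and the sums did not overlap under either scaling.

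The thioredoxin and glutaredoxin genes lay on both sides of 0, with 2 positive and 5 negative folds. Txn2, the thioredoxin of mitochondria and the most abundant of the 7 in CPM, had 281 and 288 CPM in cuprizone, against 350.1 and 295 CPM in mock. Cuprizone replicate 2 and mock replicate 2 differed little, and the log2 fold was -0.25 (SE 0.15, edgeR adjusted p = 0.577). The cytosolic thioredoxin Txn1 had 176 and 126 CPM in cuprizone, against 165 and 136 CPM in mock, with full overlap. Txnrd1, its reductase and a selenoprotein, had 43.9 and 50.9 CPM in cuprizone, against 33.8 and 42.3 CPM in mock (log2 fold 0.25, SE 0.24, edgeR adjusted p = 0.764). The mitochondrial reductase Txnrd2 had 25.6 and 25.8 CPM in cuprizone, against 27.8 and 28.9 CPM in mock, a log2 fold of -0.21 (SE 0.26). Srxn1, the sulphiredoxin that repairs overoxidised peroxiredoxins and a known NRF2 target, stood at 74.9 and 58.1 CPM in cuprizone, against 75.2 and 73.1 CPM in mock, a log2 fold of -0.23 (SE 0.21). Of the glutaredoxins, Glrx had a log2 fold of 0.22 (SE 0.21) with groups that did not overlap, and Glrx5, which serves iron-sulphur cluster assembly, -0.03 (SE 0.41). The 2 cuprizone libraries of Glrx5 lay at 22.8 and 11.5 CPM, on both sides of mock at 17.5 and 15.9 CPM.

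Among the 6 peroxiredoxins, which reduce peroxides with a reactive cysteine, Prdx4 stood apart. This peroxiredoxin of the endoplasmic reticulum had 17.9 and 17.0 CPM in cuprizone libraries, against 31.1 and 37.5 CPM in mock libraries. Both cuprizone libraries lay below both mock libraries. The log2 fold was -1.05 (SE 0.28), with an unadjusted p of 0.00781 and an edgeR adjusted p of 0.233, and it stayed between -1.18 and -0.88 when 1 library was left out. Its lowest adjusted p over the alternatives was 0.0607, with DESeq2. Prdx6, which is abundant in astrocytes and also acts on phospholipids, had 1095 and 925 CPM in cuprizone, against 1316 and 1157 CPM in mock, so the higher cuprizone library lay just under the lower mock library. Its log2 fold was -0.36 (SE 0.14, edgeR adjusted p = 0.373). Prdx5, found in mitochondria, peroxisomes and the cytosol, had 664 and 521 CPM in cuprizone, against 768 and 632 CPM in mock. The log2 fold was -0.31 (SE 0.17). Its groups overlapped on library totals, and with TMM factors both cuprizone libraries lay lower.
The other 3 stood near 0. The cytosolic Prdx1 had 532 and 515 CPM in cuprizone, against 438 and 487 CPM in mock (log2 fold 0.11, SE 0.14). Prdx2, rich in neurons, and the mitochondrial Prdx3 had log2 folds of -0.03 (SE 0.18) and 0.01 (SE 0.16), and their groups overlapped.

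The enzymes that destroy superoxide, hydrogen peroxide and lipid peroxides directly differed little. Sod2, the manganese superoxide dismutase of mitochondria, had 334 and 291 CPM in cuprizone, against 346 and 332 CPM in mock, a log2 fold of -0.19 (SE 0.15, edgeR adjusted p = 0.680). Gpx4, the selenoprotein that reduces lipid hydroperoxides in membranes, had 328 and 263 CPM in cuprizone, against 328 and 285 CPM in mock, and the groups overlapped (log2 fold -0.12, SE 0.17). Gpx1, its cytosolic relative, had 129.8 and 112 CPM in cuprizone, against 111 and 87.0 CPM in mock (log2 fold 0.22, SE 0.20). Catalase (Cat) had a log2 fold of 0.06 (SE 0.18), which was -0.10 without cuprizone replicate 2.

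The glutathione transferases attach glutathione to reactive compounds, and the most abundant of them had negative folds while most others had positive ones. Gstm1 had 828 and 816 CPM in cuprizone libraries, against 1138 and 936 CPM in mock libraries. All the cuprizone values lay below the mock values, and mock replicate 1 was the highest of the 4. The log2 fold was -0.40 (SE 0.14), with an unadjusted p of 0.0296 and an edgeR adjusted p of 0.326. Gstm5 had 586 and 462 CPM in cuprizone, against 658 and 578 CPM in mock, with a log2 fold of -0.31 (SE 0.16). Its groups overlapped on library totals and lay lower in both cuprizone libraries with TMM factors. Gsto1, the omega class enzyme, had -0.21 (SE 0.18). Gsta4, which conjugates the lipid aldehyde hydroxynonenal, had 0.08 (SE 0.21), Gstm7 0.14 (SE 0.19) and Gstp1 0.12 (SE 0.16). Of the microsomal transferases, Mgst3 had 282 and 248 CPM in cuprizone, against 236 and 229 CPM in mock (log2 fold 0.12, SE 0.15), and Mgst1 had 0.37 (SE 0.33) with groups that overlapped. The epoxide hydrolase Ephx1 had 21.3 and 22.3 CPM in cuprizone, against 16.5 and 17.0 CPM in mock. Its groups did not overlap and the replicates lay close together, and the log2 fold was 0.31 (SE 0.30, edgeR adjusted p = 0.757).

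All 5 genes of NADPH supply among the 39 had positive folds over the 4 libraries, although those of Pgd and Tkt turned negative without cuprizone replicate 2. The largest was in G6pdx, the entry enzyme of the pentose phosphate pathway. G6pdx had 35.9 and 62.6 CPM in cuprizone libraries, against 30.3 and 31.2 CPM in mock libraries. Cuprizone replicate 2 stood far above the other 3 libraries, and replicate 1 only slightly above mock. The log2 fold of 0.61 (SE 0.32, edgeR adjusted p = 0.502) was 0.14 without cuprizone replicate 2. Pgd, the next NADPH-producing enzyme of the pathway, had 30.9 and 49.0 CPM in cuprizone, against 33.5 and 37.4 CPM in mock, and its fold of 0.10 became -0.28 without cuprizone replicate 2. Taldo1, transaldolase and the most abundant of the 5 in CPM, had 366 and 392 CPM in cuprizone, against 346 and 342 CPM in mock (log2 fold 0.07, SE 0.14, edgeR adjusted p = 0.924). Transketolase (Tkt) had 0.18 (SE 0.19) and malic enzyme (Me1), which makes NADPH outside that pathway, 0.23 (SE 0.27). Of 12 other tested genes of NADPH supply in a wider list, 5 had positive folds, with a median of -0.09. Of these 12, Mthfd2 had 0.63 (SE 0.36), Mthfd1 0.57 (SE 0.22) and Me2 0.39 (SE 0.26). Pgls, the lactonase between G6pdx and Pgd, had -0.44 (SE 0.22), and Idh2, the mitochondrial isocitrate dehydrogenase, -0.38 (SE 0.20). These named genes were picked after their values were seen, and the groups overlapped in none of them. The summed CPM of the 5 did not overlap on library totals, at 676 and 794 in cuprizone and 619 and 649 in mock, but overlapped with TMM factors, at 655 and 780.1 in cuprizone and 635 and 664 in mock.

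**Figure D3:**
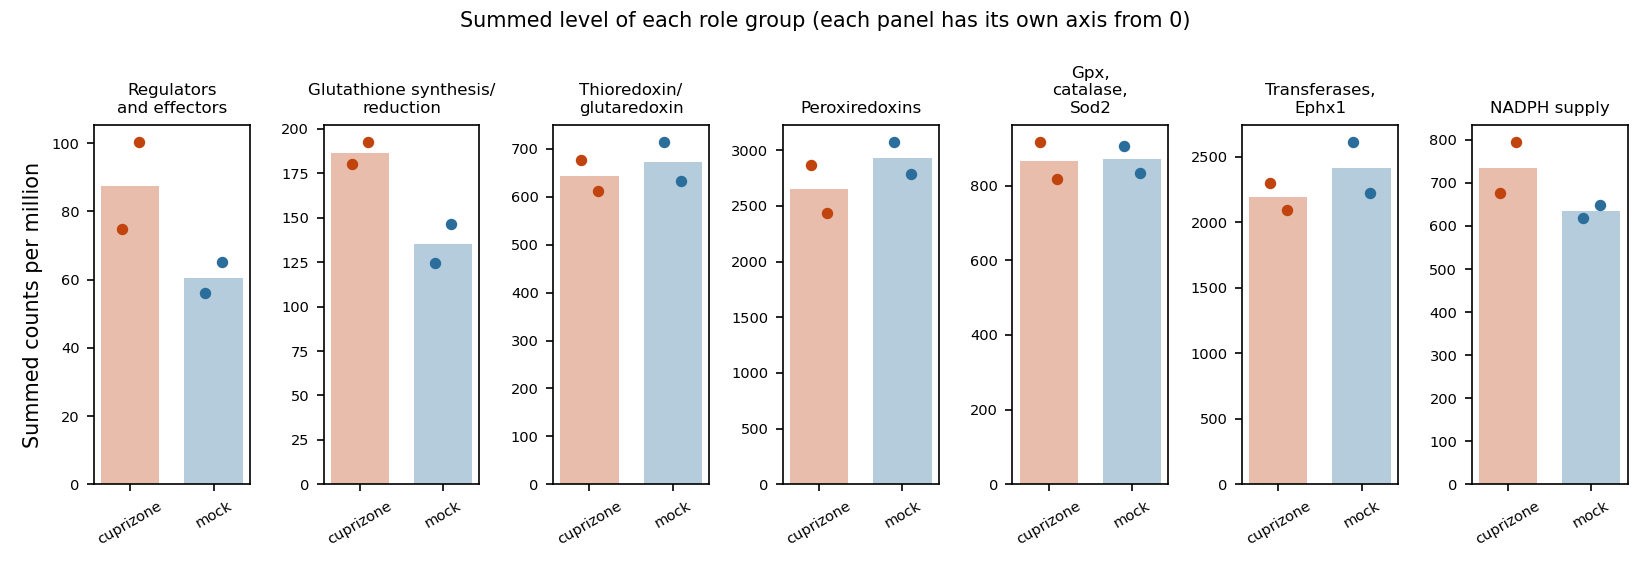
Summed CPM on library totals of each role group (bars, means of 2 libraries; points, libraries), cuprizone left and mock right, with an axis from 0 in each panel. The sums do not overlap for regulators, for glutathione synthesis and reduction and for NADPH supply, and overlap in the other 4 panels; with TMM factors the NADPH supply sums overlap, and the peroxiredoxin and transferase sums lie lower in both cuprizone libraries.

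With TMM factors, the 6 peroxiredoxins summed to 2786 and 2396 CPM in cuprizone, against 3152 and 2846 CPM in mock, and the 9 transferase and hydrolase genes to 2228 and 2053 CPM in cuprizone, against 2678 and 2276 CPM in mock. On library totals both pairs of sums overlapped.

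The group as a whole took 0.769% and 0.705% of counts in cuprizone libraries, against 0.81% and 0.734% in mock libraries, which overlapped. With TMM factors its summed CPM was 7462 and 6919 in cuprizone, against 8313 and 7504 in mock, and lay lower in both cuprizone libraries. Folds were also split at 100 CPM, a border chosen after the values were seen, and a relation to abundance was not tested. The median SE was 0.16 in the genes of at least 100 CPM and 0.29 in those below. Of the 19 genes with a mean of at least 100 CPM, 9 had positive folds (47.4%), against 45.3% of all genes that abundant. Of the 19 below it, 15 did (78.9%), against 50.9% of all such genes. A cut at the 4 genes of highest CPM was likewise chosen after the values were seen; the next gene by CPM, Prdx1, had a log2 fold of 0.11. These 4, Prdx6, Gstm1, Prdx5 and Gstm5, summed to 3174 and 2725 CPM in cuprizone, against 3880.0 and 3303 CPM in mock. The ratio of means was 0.821. The other 35 summed to 4519 and 4320.1 CPM in cuprizone, against 4220 and 4033 CPM in mock, a ratio of 1.07; with TMM factors the sums of these 35 overlapped. The summed astrocyte markers, given above, and the sum of Prdx6, Gstm1, Prdx5 and Gstm5 were both lower in both cuprizone libraries. From cuprizone replicate 1 to replicate 2, that gene sum fell while the marker share rose from 0.676% to 0.801%. Within that share Atp1b2 rose from 1017 to 1679 CPM while Slc1a2 fell from 613 to 433 CPM, so the markers did not move together. The part of the markers in the gene sum was not tested.

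**Figure D4:**
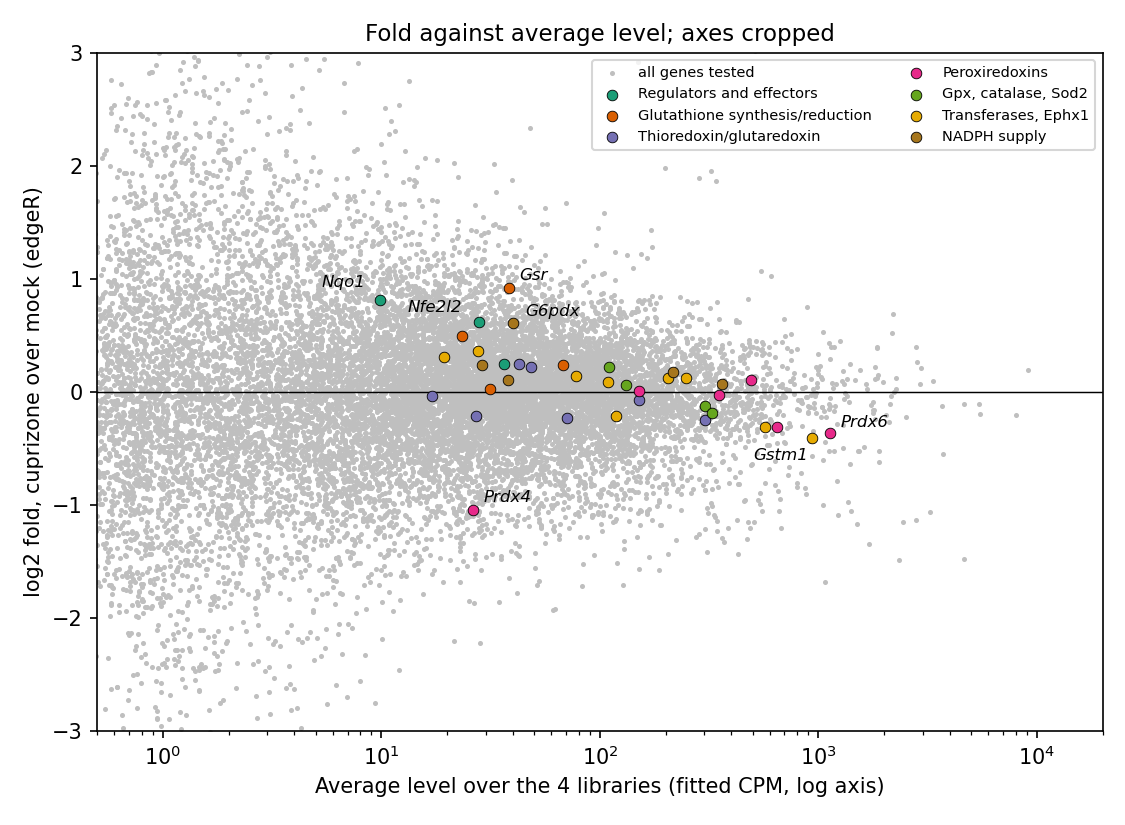
log2 fold, cuprizone over mock, against the average fitted CPM over the 4 libraries (log axis) for all genes tested (grey) and the 38 genes (colours by role); both axes are cropped, so some grey points lie outside. The coloured points lie inside the grey cloud at their level; Prdx6 and Gstm1 are the rightmost, at -0.36 and -0.40.

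Per unit of gene length, in TPM over the exons of all transcripts of a gene, Gstm1 and Gstm5 were the highest of the 39 in both groups. Gstm1 had 1898 ± 33.5 TPM in cuprizone and 2279 ± 245 TPM in mock, and Gstm5 1393 ± 195 and 1567 ± 96.9 TPM (SD, n = 2 each). Prdx5 followed at 941 ± 135 TPM in cuprizone and 1060.0 ± 113 TPM in mock. Mgst3 and Prdx6 exchanged places: Mgst3 stood at 821 ± 52.0 TPM in cuprizone and 686 ± 5.49 TPM in mock, Prdx6 at 714 ± 65.5 TPM in cuprizone and 834 ± 51.0 TPM in mock. Gpx4, Taldo1 and Prdx1 came next, at 582 to 594 TPM in cuprizone and 494 to 576 TPM in mock, and their order was within the spread of the libraries in cuprizone. At the low end, Nfe2l2 stood at 30.8 ± 0.151 TPM in cuprizone and 18.3 ± 2.62 TPM in mock, and Nqo1 at 28.0 ± 14.3 and 14.3 ± 2.62 TPM. Prdx4 was number 30 in cuprizone, at 28.2 ± 0.202 TPM, and number 22 in mock, at 52.9 ± 8.62 TPM.

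A wider list of 106 genes of the same pathways, of which 89 could be tested, likewise held no gene that edgeR called. EdgeR called 0 of the 89, where it called 0.0822% of all genes, and marked 9 at an unadjusted p under 0.05, 1 with a positive and 8 with negative folds, or 10.1% against 12.8% of all genes. DESeq2 called 1, Fth1 (adjusted p = 0.0469), or 1.12% of the 89 against 4.52% of all genes, and limma-voom 0, against 0.297%. Positive folds made up 36 of the 89 (40.4%), against 50.1% of all genes, with a median of -0.07; the difference from the 38 genes was not tested. Fth1, the heavy chain of the iron store ferritin, had 1212 and 996 CPM in cuprizone, against 1529 and 1438 CPM in mock, a log2 fold of -0.50 (SE 0.14, edgeR adjusted p = 0.254). Sod3, the extracellular superoxide dismutase, had 13.9 and 16.5 CPM in cuprizone, against 33.0 and 26.3 CPM in mock (log2 fold -1.03, SE 0.30, edgeR adjusted p = 0.261). The ER thiol proteins Txndc5 and Txndc12, which share their compartment with Prdx4, had log2 folds of -0.77 (SE 0.24) and -0.68 (SE 0.24). Park7, which encodes the stress protein DJ-1, had -0.43 (SE 0.14), and Cbs, the first enzyme from homocysteine towards cysteine, -0.61 (SE 0.20). Slc3a2, the heavy chain of the cystine-glutamate exchanger and other amino acid carriers, had -0.51 (SE 0.19) and Ggt7, of the gamma-glutamyltransferase family, -0.64 (SE 0.24). In all 8 the cuprizone libraries lay below the mock libraries; groups that did not overlap were a condition for being named, and 8 was the most to be named. The ninth gene at an unadjusted p under 0.05, named after its value was seen, had the opposite direction. Mthfd1, an enzyme of folate metabolism, had 68.1 and 86.9 CPM in cuprizone, against 46.4 and 53.1 CPM in mock, a log2 fold of 0.57 (SE 0.22, edgeR adjusted p = 0.360).

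The stress genes Hmox1 and Slc7a11 and the repressor Bach1 were named after their values were seen. Hmox1, haem oxygenase and a classic NRF2 target, had 15.3 and 9.32 CPM in cuprizone, against 9.05 and 9.67 CPM in mock, and the groups overlapped. Slc7a11, the light chain of the cystine-glutamate exchanger, had 14.6 and 22.0 CPM in cuprizone, against 13.8 and 15.9 CPM in mock, which also overlapped. Bach1, which competes with NRF2 for its elements, had 10.4 and 5.25 CPM in cuprizone, against 3.08 and 3.91 CPM in mock, a log2 fold of 1.09 (SE 0.58, edgeR adjusted p = 0.511). Cuprizone replicate 1 stood highest, and the groups did not overlap.

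On GRCm38, Nfe2l2 (ENSMUSG00000015839) spans 75675513 to 75704641 on chromosome 2, Gsr (ENSMUSG00000031584) 33652523 to 33698163 on chromosome 8, Prdx4 (ENSMUSG00000025289) 155323918 to 155340754 on chromosome X, Gstm1 (ENSMUSG00000058135) 108012255 to 108017973 on chromosome 3 and Prdx6 (ENSMUSG00000026701) 161240112 to 161251219 on chromosome 1. All counts are for whole genes. Reads of near-identical copies could have been shared or dropped: of all 50-base stretches of its transcripts, Gpx4 shared 34.7% with other genes, Gstp1 33.7%, Me1 22.9% and Gstm1 18.9%, with Sod2 between Me1 and Gstm1. The copies themselves held few counts. Gpx4-ps2 stood at 5.73 and 4.66 CPM in cuprizone and 4.97 and 5.09 CPM in mock. Gstp2 stood under 1 CPM in every library. Low counts in the copies cannot show how many shared reads were dropped, because the multi-mapping setting is not known. Exons of Prdx5, Gss, Gstm5, G6pdx, Prdx2 and Keap1 overlapped a gene on the other strand over at least 10% of their bases, and the sources used here do not say whether counting used strand.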

How the data were processed

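Per the labels' protocols, RNA pulled down with HA-tagged ribosomes was column-purified, passed at an RNA integrity number above 8 and made into libraries with a low-input kit. The authors deposited raw counts per Ensembl gene for 4 libraries, made with FastQC 0.11.9, STAR 2.5.4b and featureCounts 1.6.0 on GRCm38 (mm10), per the submitters' processing notes; the sources used here do not give the annotation release or the strand and multi-mapping settings. Symbols were matched for 55144 of 55471 ids; lengths and coordinates come from GENCODE M21.

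All genes were fitted together with edgeR 4.0.16 (R 4.3.3): filterByExpr by group, TMM factors (0.974 to 1.03), robust glmQLFit with the package's default dispersions, glmQLFTest, 2-sided, Benjamini-Hochberg adjustment over 15816 genes, threshold 0.05. Standard errors (SE) were computed as the absolute log2 fold over the square root of F. Alternatives were RLE, upper-quartile and no factors, other filters (none, or a mean CPM of at least 1), bias-adjusted dispersions, DESeq2 1.42.0, limma-voom (limma 3.58.1), a replicate block and leaving out each library. The procedures were tested on simulated data. CPM scaled with TMM factors was added after seeing the data.

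The 39 genes, the wider list and the marker lists were chosen with earlier results of these data known. Every one of the 39 is accounted for. Given in full were genes with an unadjusted p under 0.05 and groups that did not overlap, the gene of highest CPM of each role, and Nfe2l2, Keap1 and Nqo1, with others added after their values were seen; of the wider list, up to 8 genes of smallest p whose groups did not overlap were named.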

Additional observations from a re-analysis of the deposited data

How the results depend on the processing

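None of the 13 alternatives, of which DESeq2 and limma-voom were 1 each and the others edgeR fits, called any of the 38 genes, and the lowest adjusted p of any of them was 0.0607. Over all genes the count of calls varied more: 13 as reported, 715 with DESeq2, 191 without a filter, 68 at a mean CPM of at least 1, 51 with bias-adjusted dispersions, 47 with limma-voom and 5 to 123 with 1 library left out. The median log2 fold of the group ran from 0.06 to 0.16 and the number of positive folds from 22 to 27. With CPM scaled by TMM factors, 9 genes instead of 16 were higher in both cuprizone libraries and 10 instead of 5 lower in both; the scaling itself lowers cuprizone values relative to mock. Signs were kept in 474 of 494 comparisons of a gene's fold, and 27 of 38 genes kept theirs throughout. With library totals alone the folds turned to 0.0038 for Txn1, 0.0404 for Glrx5 and 0.0443 for Prdx2. With 1 library left out, folds ran from -0.13 to 0.54 for Keap1, -0.29 to 0.28 for Gss, -0.32 to 0.14 for Txn1, -0.59 to 0.37 for Glrx5, -0.24 to 0.16 for Prdx2, -0.0642 to 0.11 for Prdx3, -0.28 to 0.0173 for Gpx4, -0.10 to 0.21 for Cat, -0.0949 to 0.24 for Gsta4, -0.28 to 0.40 for Pgd and -0.018 to 0.35 for Tkt; the cause was not tested. The deviations of same-numbered libraries correlated at -0.0124 over all genes tested, so the replicate numbers carried no shared deviation. This cannot show whether same-numbered libraries were collected or prepared together, which the labels do not say. The replicate block called 0 of the 38 and 10 of all genes, with a median of 0.07 and 24 positive folds. With 2 libraries a group, the SE of a log2 fold in the group was 0.21 at the median, which limits what could be called.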

Other observations

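The 2 cuprizone libraries differed from each other more than 1.5-fold in 5 of the 37 genes of the group with a mean of at least 10 CPM, or 13.5%, against 21.5% of all genes at that level. The 2 mock libraries did so in 1 of 37, or 2.7%, against 16.5% of all genes. Cuprizone replicate 2 was the higher library in 4 of the 5, namely Keap1, Gsr, G6pdx and Pgd, at 1.57, 1.56, 1.74 and 1.59 times replicate 1, and the lower one in Glrx5. Those 4 genes are 10.8% of the 37, and 11.6% of all genes at that level were likewise higher in replicate 2. Nqo1, just under that level, was 2.04 times as high in cuprizone replicate 2 as in replicate 1. In mock libraries Gsr and G6pdx differed by 1.01-fold and 1.03-fold between replicates. The ratio of Gsr to Gss in TPM was 3.27 and 3.48 in cuprizone libraries, against 2.06 and 1.64 in mock libraries, so it lay higher in both cuprizone libraries although each gene varied between them. The ratio of Gsr to Gss was chosen after the values were seen and no test was made of it. Other ratios computed overlapped between groups. That of Gclc to Gclm was 0.529 and 0.734 in cuprizone, against 0.424 and 0.602 in mock. That of Nfe2l2 to Bach1 was 5.47 and 10.5 in cuprizone, against 10.4 and 9.59 in mock. The ratio of Nfe2l2 to Keap1, given above, overlapped as well.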
